A study of Mus musculus with 4 samples.

Results

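Expression was examined for 10 genes of the mTOR complexes and their regulators, Mtor, Rptor, Rictor, Deptor, Rheb, Tsc1, Tsc2, Ddit4, Rps6kb1 and Eif4ebp1. They were taken by gene symbol from the table of 49585 mouse genes, by a rule that names the genes and sets no condition on their values, though they were chosen with earlier results of these data known. All 10 exceeded an FPKM of 1 in every library and so belonged to the 12669 genes called expressed, which reached an FPKM of 1 in 1 or more of the libraries. FPKM is the number of fragments, or read pairs, on a gene divided by the length of its exons and by the total of the library, so it can be compared between genes of different length.

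The libraries came from 2 clones of 4T1, a murine TNBC cell line, each grown from a single cell. The 4T1-HM clone has a high metastatic capacity and the 4T1-LM clone a low one, and the comparison asked how the clones differ in their tolerance of a change in iron. Each clone was grown for 48 h in RPMI medium with fetal bovine serum, with 50 μmol/L of the iron chelator deferasirox (DFX) in DMSO (HM_DFX and LM_DFX) or with DMSO alone (HM_Ctrl and LM_Ctrl). There was 1 library for each of the 4 conditions, so no difference between libraries has a replicate check, no p-value is given, and a difference between the clones cannot be told apart from a difference between any pair of single-cell clones. The intervals given with the values cover counting error only.

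The kinase mTOR works in a pair of complexes. In mTORC1 it is bound to raptor (Rptor), is switched on at the lysosome by the GTPase Rheb and drives protein synthesis through S6 kinase (Rps6kb1) and through release of the translation factor eIF4E from its binding protein 4E-BP1 (Eif4ebp1). In mTORC2 it is bound to rictor (Rictor) and phosphorylates AKT, and the protein Deptor binds and inhibits the kinase in both complexes. The TSC complex, built on Tsc1 and Tsc2, inactivates Rheb, and Ddit4, also known as REDD1, is a stress-induced protein that restrains mTORC1 through TSC. These proteins are regulated largely by binding and phosphorylation, neither of which RNA levels measure.

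Libraries were between 14363065 (HM_DFX) and 21883855 (LM_DFX) fragments deep, with 16745608 in HM_Ctrl and 15731521 in LM_Ctrl. Of 8 epithelial markers, 7 were at an FPKM of at least 1 in every library and Krt5 was at 0, while the summed FPKM of the list was 1767 in HM_Ctrl against 565 in HM_DFX, and 2298 in LM_Ctrl against 1072 in LM_DFX. No endothelial marker of 4, 1 fibroblast marker of 6 (Pdgfra) and 1 leukocyte marker of 6 (Cd68) reached an FPKM of 1. Summed fibroblast markers ranged from 3.51 to 5.64 FPKM, and Ptprc, which marks leukocytes, did not exceed 0.0139. Cd68, a lysosomal protein as well as a macrophage marker, stood at 12.9 FPKM in HM_Ctrl against 37.4 in HM_DFX, and 12.3 in LM_Ctrl against 83.1 in LM_DFX. Of the 7 epithelial markers, all were lower under DFX in HM and 6 in LM, where Krt19 was at 46.4 FPKM in LM_Ctrl against 103 in LM_DFX. Krt14 was at 2.48 FPKM in HM_Ctrl against 54.3 in LM_Ctrl. The epithelial sum and Cd68 thus moved with DFX in both clones, and their part in the values below was not tested. In cultured cells measured in bulk, fewer cells of a kind and less RNA per cell cannot be told apart.

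Ddit4 and Eif4ebp1 were the most abundant of the 10 transcripts in each library, between 65.4 and 198 FPKM, and the other 8 lay between 3.02 and 25.9 FPKM. In HM_Ctrl the order from the highest FPKM was Ddit4, Eif4ebp1, Tsc2, Rictor, Rheb, Rps6kb1, Deptor, Rptor, Mtor and Tsc1, of which the neighbours Rheb (13.2 FPKM) and Rps6kb1 (12.97 FPKM) were within counting error of each other. The kinase itself was the least variable transcript, with a highest FPKM 1.31 times its lowest over the 4 libraries. Deptor was the most variable, with a highest FPKM 4.195 times its lowest.

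**Figure D1:**
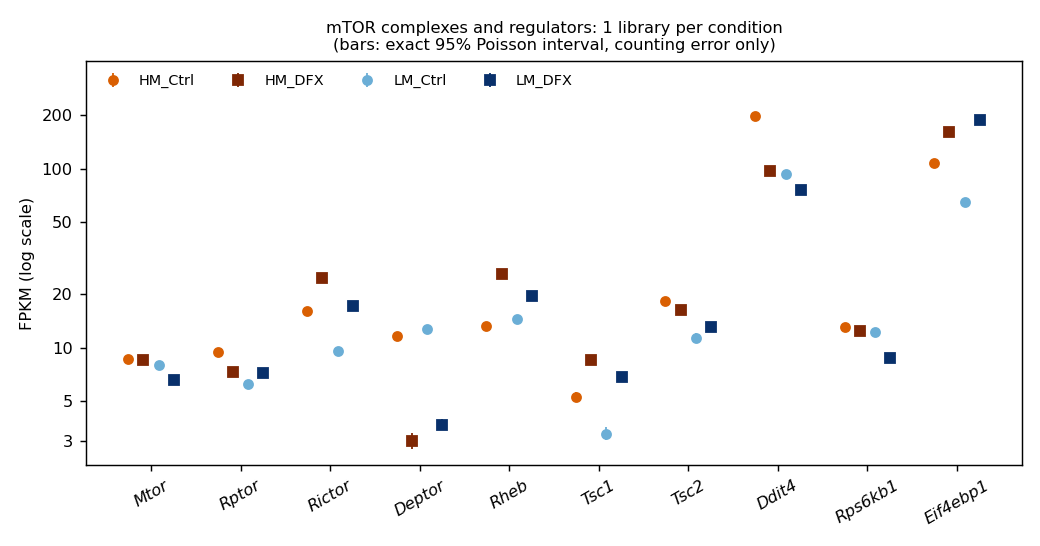
FPKM (log scale) of the 10 genes in the 4 libraries, circles for DMSO and squares for DFX, with bars for the exact Poisson interval at 95%, which are mostly smaller than the points. Deptor is at 3.02 and 3.71 FPKM under DFX and at 11.6 and 12.7 FPKM without it, while the points of Mtor lie between 6.58 and 8.62 FPKM.

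RefSeq promoter sequences of GRCm38.p6, the assembly of mm10, were at hand for 8 of the 10 genes, all but Deptor and Eif4ebp1. They are shown for the 4 genes of these whose FPKM differed by at least 1.5-fold between DFX and DMSO in either clone, with the letters of hypoxia-inducible factor (HIF) sites marked, since the prolyl hydroxylases that mark HIF for degradation need iron and iron chelators are known to stabilise HIF. The 250 bases before the RefSeq start are given 5′ to 3′ on the strand of the gene, with capitals for ACGTG or GCGTG, the core of a HIF site, on either strand (CACGC is GCGTG read on the other strand). For Rheb only 30 bases are shown, because its RefSeq window lies inside the longer gene model of the deposited table, and the capitals there mark CACGTG, a palindrome that holds the ACGTG core on both strands and is also the E-box bound by Myc and TFEB.
Ddit4, chr10:59951771-59952020, minus strand: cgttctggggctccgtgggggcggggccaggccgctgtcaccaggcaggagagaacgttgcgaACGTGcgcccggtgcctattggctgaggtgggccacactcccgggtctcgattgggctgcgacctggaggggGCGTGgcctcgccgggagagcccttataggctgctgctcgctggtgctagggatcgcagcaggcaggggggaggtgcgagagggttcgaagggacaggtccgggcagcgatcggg
Rheb, chr5:24842440-24842469, minus strand: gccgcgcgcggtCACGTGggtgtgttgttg
Tsc1, chr2:28640983-28641232, plus strand: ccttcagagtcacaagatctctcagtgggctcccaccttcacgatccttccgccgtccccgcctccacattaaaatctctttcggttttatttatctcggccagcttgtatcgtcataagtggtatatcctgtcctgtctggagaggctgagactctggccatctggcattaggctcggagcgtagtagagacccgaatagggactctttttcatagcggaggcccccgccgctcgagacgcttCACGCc
Rictor, chr15:6708131-6708380, plus strand: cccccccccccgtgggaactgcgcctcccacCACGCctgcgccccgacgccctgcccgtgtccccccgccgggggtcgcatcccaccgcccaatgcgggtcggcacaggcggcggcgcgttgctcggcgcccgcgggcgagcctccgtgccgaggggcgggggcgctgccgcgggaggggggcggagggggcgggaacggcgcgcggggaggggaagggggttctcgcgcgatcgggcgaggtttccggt
The Ddit4 promoter held the core at −187 to −183 and at −115 to −111 from the start, the Tsc1 promoter at −6 to −2 and the Rictor promoter at −219 to −215. The last 5 bases of the Tsc1 window, and with them most of its core, lie inside the gene model of the deposited table. The core occurred in 7 of the 8 promoters, all but that of Mtor, and in 12679 of 32851 promoters of the same length, or 38.6%. CACGTG occurred in 1 of the 8, at −96 to −91 in Rheb, and in 6.02% of all promoters. The GC content of the 8 windows ran from 37.6% (Rptor) to 81.2% (Rictor), and the shares of all promoters were not matched for it. Nothing particular to the 8 is drawn from these shares. A match of letters is a description of the window and not a binding site.

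Without the drug, 8 of the 10 genes had a higher FPKM in HM_Ctrl than in LM_Ctrl, and the median log2 ratio of FPKM + 1 over the 10 was 0.54, beside 0.01 over all expressed genes. One gene, Ddit4, passed 2-fold in the higher direction, as did 3.65% of the expressed genes, and none of the 10 passed it in the lower direction, as did 3.15%. Ddit4 (ENSMUSG00000020108, mm10 chr10:59949675-59951770) was at 198 FPKM in HM_Ctrl and 93.6 FPKM in LM_Ctrl, from 5586 and 2481 fragments. The FPKM ratio was 2.12 (interval 2.02 to 2.22), and 97.0% of the expressed genes had a lower log2 ratio.

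Tsc1 and Tsc2, of the complex that inactivates Rheb, were higher in HM_Ctrl, and so were the subunits that define the 2 mTOR complexes. Tsc1 (ENSMUSG00000026812, chr2:28641228-28691167) was at 5.32 FPKM in HM_Ctrl and 3.31 in LM_Ctrl, a ratio of 1.61 (1.46 to 1.78). Tsc2 (ENSMUSG00000002496, chr17:24595937-24632629) was at 18.2 and 11.3 FPKM, a ratio of 1.60 (1.48 to 1.73). For Tbc1d7, the other subunit of that complex, the ratio was 1.17 with an interval of 0.974 to 1.40 that includes 1. Exons of Tsc2 overlap those of Pkd1 on the opposite strand over 693 bases, 7.20% of its exon length, and the sources used here do not say whether the counting used strand. Rictor (ENSMUSG00000050310, chr15:6708381-6800398) was at 16.03 FPKM in HM_Ctrl and 9.54 in LM_Ctrl, a ratio of 1.68 (1.57 to 1.80). Rptor (ENSMUSG00000025583, chr11:119602905-119899576) was at 9.49 and 6.29 FPKM, a ratio of 1.51 (1.41 to 1.62). Tsc1, Tsc2, Rictor and Rptor, but not Tbc1d7, were between 1.5-fold and 1.7-fold higher in the highly metastatic clone on the FPKM scale, under the 2-fold threshold.

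Of the effectors, Eif4ebp1 (ENSMUSG00000031490, chr8:27260329-27276674) was at 108 FPKM in HM_Ctrl and 65.4 in LM_Ctrl, a ratio of 1.65 (1.57 to 1.74). The kinase genes differed little between the clones. Mtor (ENSMUSG00000028991, chr4:148448611-148557683) was at 8.62 and 7.99 FPKM, a ratio of 1.08 (1.00 to 1.17), and Rps6kb1 (ENSMUSG00000020516, chr11:86498871-86544805) was at 12.97 and 12.3 FPKM, a ratio of 1.06 with an interval of 0.988 to 1.13 that includes 1. Deptor (ENSMUSG00000022419, chr15:55112317-55259271) and Rheb (ENSMUSG00000028945, chr5:24802823-24842624) were the 2 genes with a lower FPKM in HM_Ctrl, each at a ratio of 0.914 to LM_Ctrl.

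Under DFX the members went in different directions, and the median log2 ratio over the 10 was −0.04 in HM and 0.17 in LM, beside −0.10 and −0.04 over all expressed genes. In HM, 2 of the 10, Deptor and Ddit4, were called lower, where 12.4% of the expressed genes were, and none was called higher, where 6.93% were. In LM, Deptor was called lower, where 8.72% of the expressed genes were, and Eif4ebp1 was called higher, where 7.09% were. Ddit4 in HM rested on the scale, since with libraries scaled by the median ratio of genes its log2 ratio was −0.88 and it was not called, while Rheb was then called higher at 1.05. That scaling moved the median of all expressed genes in HM from −0.10 to 0.00. HM_Ctrl serves both as the higher library of the clone comparison and as the control of the DFX comparison, so for Ddit4 the clone ratio and the DFX ratio in HM rest on the same library.

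Deptor, the inhibitor of both complexes, had the largest change of the 10 in each clone. In LM this rested on the scale, since with median-ratio scaling the log2 ratio was −1.49 for Deptor and 1.56 for Eif4ebp1. The FPKM of Deptor was 11.6 in HM_Ctrl and 3.02 in HM_DFX, from 1721 and 385 fragments. In LM it was 12.7 without DFX and 3.71 with it, from 1769 and 721 fragments. Both DFX libraries lay below both DMSO libraries. It was 3.83-fold lower under DFX in HM (interval 3.43 to 4.29) and 3.41-fold lower in LM (3.13 to 3.73), log2 ratios of −1.65 and −1.54 of FPKM + 1, and 3.00% and 2.87% of the expressed genes had a lower log2 ratio. The exons of Deptor overlap the processed transcript Gm9920 on the opposite strand over 303 bases, 3.41% of their length.

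The other subunits showed no shared direction. Mtor was at 8.62 FPKM in HM_Ctrl and 8.47 in HM_DFX, a ratio of 0.982 with an interval of 0.910 to 1.06 that includes 1, and its log2 ratio of −0.02 became 0.10 under median-ratio scaling. In LM the kinase was at 7.99 FPKM without DFX and 6.58 with it, a ratio of 0.824 (0.764 to 0.889). Rictor, the mTORC2 subunit, was higher under DFX in both clones, at 24.4 FPKM against 16.03 in HM and 17.0 against 9.54 in LM. The Rictor ratios were 1.53 (1.45 to 1.61) and 1.78 (1.68 to 1.90), and both DFX libraries lay above both DMSO libraries. Rptor, the mTORC1 subunit, was lower under DFX in HM, at 7.29 FPKM against 9.49, and higher in LM, at 7.17 against 6.29. These are Rptor ratios of 0.768 (0.718 to 0.822) and 1.14 (1.07 to 1.22).

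Rheb, the activator of mTORC1, was higher under DFX in both clones. Its FPKM was 13.2 in HM_Ctrl and 25.9 in HM_DFX, a ratio of 1.95 (1.84 to 2.08), and 14.5 in LM_Ctrl and 19.5 in LM_DFX, a ratio of 1.35 (1.27 to 1.43). Both DFX libraries lay above both DMSO libraries. Tsc1 was at 5.32 FPKM in HM_Ctrl and 8.48 in HM_DFX, a ratio of 1.59 (1.47 to 1.73), and at 3.31 FPKM in LM_Ctrl and 6.88 in LM_DFX, a ratio of 2.08 (1.90 to 2.28). On the scale of FPKM + 1, which understates changes of low genes, the log2 ratio of Tsc1 in LM was 0.87 and under the threshold. Its partner Tsc2 was at 18.2 FPKM in HM_Ctrl against 16.1 in HM_DFX, and 11.3 in LM_Ctrl against 12.96 in LM_DFX. The activator and the scaffold of its inhibitor were thus both more abundant under DFX, whereas Tsc2 stayed within 1.2-fold in each clone.

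Ddit4, which acts on mTORC1 through TSC, was at 198 FPKM in HM_Ctrl against 97.5 in HM_DFX, and 93.6 in LM_Ctrl against 75.7 in LM_DFX. HM_Ctrl stood above the other 3 libraries, which lay within 1.3-fold of each other. The DFX ratio was 0.492 in HM (0.469 to 0.517) and 0.808 in LM (0.766 to 0.854), log2 ratios of −1.01 and −0.30.

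Among the targets, the gene of the translation repressor 4E-BP1 was higher under DFX in both clones and that of S6 kinase was not. Eif4ebp1 was at 108 FPKM in HM_Ctrl and 160 in HM_DFX, from 3978 and 5034 fragments, a ratio of 1.48 (1.42 to 1.54). In LM it was at 65.4 FPKM without DFX and 188 with it, from 2261 and 9012 fragments, a ratio of 2.87 (2.74 to 3.00) and the largest increase of the 10. LM_Ctrl was the lowest of the 4 libraries for Eif4ebp1 and LM_DFX the highest. Rps6kb1 was at 12.97 FPKM in HM_Ctrl and 12.4 in HM_DFX, a ratio of 0.953 with an interval of 0.891 to 1.02 that includes 1, and its log2 ratio of −0.06 became 0.07 under median-ratio scaling. In LM it was at 12.3 FPKM without DFX and 8.71 with it, a ratio of 0.709 (0.662 to 0.759).

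**Figure D2:**
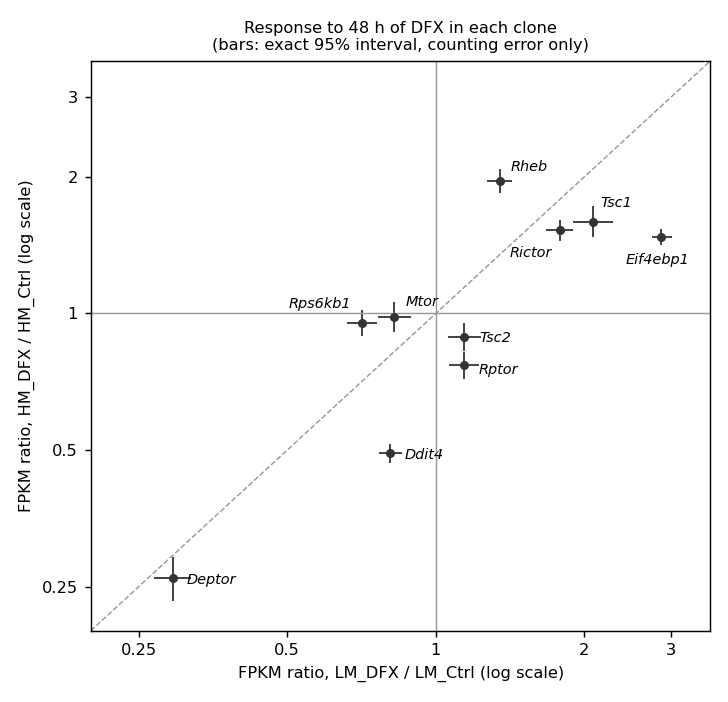
FPKM ratio of DFX to DMSO for each gene in LM (x axis) and HM (y axis), both on log scales, with bars for the exact 95% interval of counting error and a dashed line where both ratios are equal. Deptor is at the lower left with ratios of 0.293 and 0.261, Eif4ebp1 is farthest right at 2.87, Rheb is above the dashed line, and Rptor and Tsc2 are above 1 in LM and below 1 in HM.

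The response of HM minus the response of LM was set out on the log2 scale of FPKM + 1 for each gene. None of the 10 genes differed by 2-fold in the higher direction, as 3.52% of the expressed genes did, or in the lower direction, as 5.38% did. The largest differences were −0.95 for Eif4ebp1 and −0.71 for Ddit4, and the next were 0.51 for Rheb and −0.51 for Rptor. Rps6kb1 had a difference of 0.39, Mtor of 0.22, Tsc2 of −0.34, Tsc1 of −0.29 and Rictor of −0.19. Deptor was the 1 gene whose counting interval of the difference, −0.37 to 0.03, included 0, around a difference of −0.17 in fragments per total and −0.11 in FPKM + 1. The median difference over the 10 was −0.24, beside −0.08 over all expressed genes.

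Under DFX the clones were closer for several of the genes and farther apart for others. None of the 10 passed 2-fold between HM_DFX and LM_DFX, where 3.31% of the expressed genes were called higher and 5.05% lower, and the median log2 ratio over the 10 was 0.31, beside −0.05 over all expressed genes. Ddit4 was at a ratio of 1.29 (1.22 to 1.36) between the clones under DFX, where it had been 2.12 without the drug. For Rptor the ratio was 1.02 with an interval of 0.949 to 1.09 that includes 1, where it had been 1.51. Eif4ebp1 and Rheb changed sides, with ratios of 0.851 (0.822 to 0.881) and 1.33 (1.26 to 1.40) under DFX. Without it these ratios had been 1.65 and 0.914, so Rheb was farther from 1 under DFX. Mtor and Rps6kb1, at clone ratios of 1.29 (1.19 to 1.39) and 1.42 (1.32 to 1.52) under DFX, were farther apart than without it. Rictor remained higher in HM at 1.44 (1.37 to 1.51), Tsc2 at 1.25 (1.16 to 1.34) and Tsc1 at 1.23 (1.15 to 1.32). Deptor was at 0.814 (0.717 to 0.922), where it had been 0.914 (0.855 to 0.977).

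**Figure D3:**
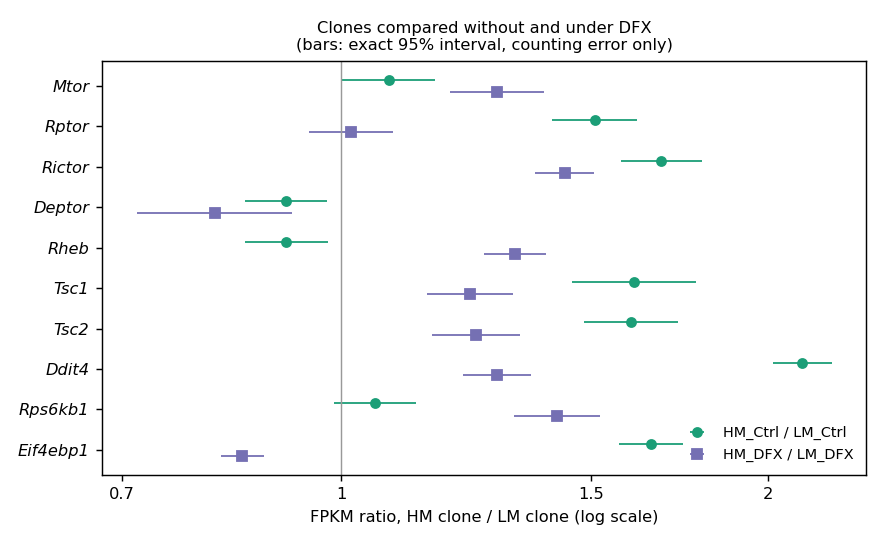
FPKM ratio of the HM clone to the LM clone (log scale) for each gene, with circles for DMSO, squares for DFX and bars for the exact 95% interval of counting error. Ddit4 moves from 2.12 to 1.29, Rptor from 1.51 to 1.02 and Eif4ebp1 from 1.65 to 0.851, while Rps6kb1 moves from 1.06 to 1.42.

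Ratios of partner genes within a library do not depend on how libraries are scaled; the pairs were chosen after the values had been seen. The balance of the subunits that define the complexes, Rictor to Rptor, was 1.69 in HM_Ctrl against 3.35 in HM_DFX, and 1.52 in LM_Ctrl against 2.37 in LM_DFX. Tsc1 to Tsc2 was 0.293 in HM_Ctrl and 0.292 in LM_Ctrl, and 0.525 in HM_DFX and 0.531 in LM_DFX, so the clones had like values in each condition. Deptor to Mtor was 1.34 in HM_Ctrl against 0.357 in HM_DFX, and 1.59 in LM_Ctrl against 0.564 in LM_DFX. The inhibitor was thus more abundant per length than the kinase without DFX and less abundant with it in both clones. Rheb to Mtor was 1.54 in HM_Ctrl against 3.06 in HM_DFX, and 1.81 in LM_Ctrl against 2.97 in LM_DFX. Eif4ebp1 to Eif4e, the factor that 4E-BP1 binds, was 4.58 in HM_Ctrl against 5.13 in HM_DFX, and 1.85 in LM_Ctrl against 5.94 in LM_DFX, which set LM_Ctrl apart from the other 3. Eif4ebp1 to Rps6kb1, the other target, was 8.34 in HM_Ctrl against 12.9 in HM_DFX, and 5.33 in LM_Ctrl against 21.5 in LM_DFX. Ddit4 to Tsc2 was 10.9 in HM_Ctrl against 6.04 in HM_DFX, and 8.25 in LM_Ctrl against 5.84 in LM_DFX.

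**Figure D4:**
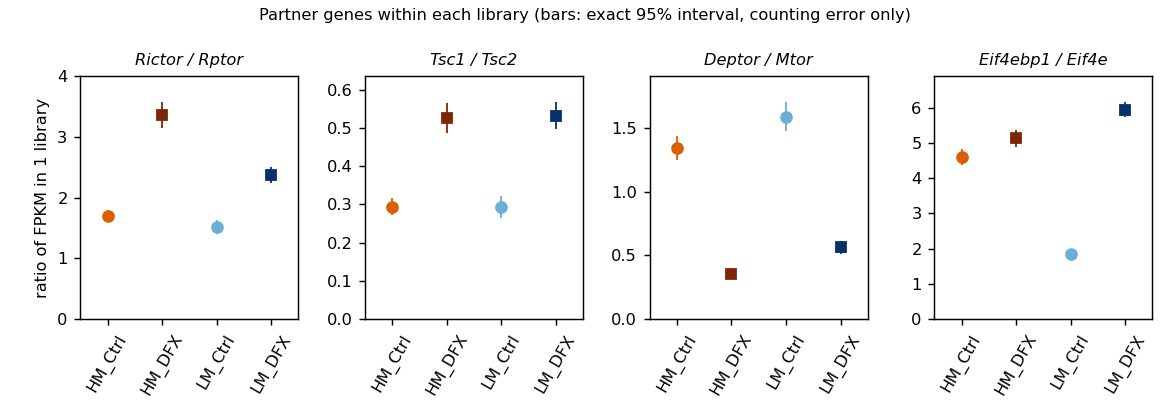
Ratio of the FPKM of partner genes within each library, on axes that start at 0, with bars for the exact 95% interval of counting error. Rictor to Rptor and Tsc1 to Tsc2 are higher in both DFX libraries, Deptor to Mtor is lower in both, and Eif4ebp1 to Eif4e is at 1.85 in LM_Ctrl and at 4.58 to 5.94 in the other 3 libraries.

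Of 76 other genes of the mTOR pathway, written down from general knowledge of the pathway, 69 were expressed. Under DFX in HM, 5 were called higher (7.25%, beside 6.93% of all expressed genes) and 4 lower (5.80%, beside 12.4%). Under DFX in LM, 5 were called higher (7.25%, beside 7.09%) and 3 lower (4.35%, beside 8.72%). Without rescaling, these shares were near or below those of all genes. In HM_Ctrl against LM_Ctrl, 4 were called higher (5.80%, beside 3.65%) and 1 lower (1.45%, beside 3.15%), and in HM_DFX against LM_DFX 4 were called higher (5.80%, beside 3.31%) and none lower (beside 5.05%). Their median log2 ratio was −0.14 in HM and −0.05 in LM under DFX, beside −0.10 and −0.04 over all expressed genes, and 0.13 without and 0.10 with DFX between the clones, beside 0.01 and −0.05. Under median-ratio scaling the split of the 69 in HM under DFX was 9 higher and 2 lower. With that scaling, 8.9% of all expressed genes were called higher and 10.1% lower.

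Of the 6 pathway lists, the one with the most calls under DFX held folliculin and its partners, which act on the Rag GTPases that bring mTORC1 to the lysosome. Of 11 expressed genes of the Rag, Ragulator and folliculin list, 3 were called higher under DFX in HM (27.3%, beside 6.93% of all expressed genes, and 5 genes with median-ratio scaling) and 4 in LM (36.4%, beside 7.09%). The list is small, and nothing particular to it is drawn from these shares. Flcn, the gene of folliculin, was at 22.1 FPKM in HM_Ctrl against 50.1 in HM_DFX, and 9.09 in LM_Ctrl against 35.4 in LM_DFX. Its partner Fnip1 was at 27.2, 80.6, 8.32 and 31.02 FPKM in the same order, and Fnip2 at 7.11, 16.1, 3.09 and 10.8 FPKM. All 3 were highest in HM_DFX and lowest in LM_Ctrl. Rragc, a Rag GTPase, was at 55.9 FPKM in HM_Ctrl against 102.7 in HM_DFX, and 21.2 in LM_Ctrl against 51.4 in LM_DFX, a log2 ratio of 1.24 under DFX in LM and 1.36 between the clones without drug. Lamtor4, a Ragulator subunit, was the 1 gene of the list called lower, with a log2 ratio of −1.11 in HM that was under 2-fold with median-ratio scaling.

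Among 7 expressed subunits and assembly factors of the complexes, Akt1s1, which encodes the mTORC1 inhibitor PRAS40, was called higher under DFX in HM, at 53.3 FPKM against 25.8, and Prr5, an mTORC2 subunit, was called lower in HM_Ctrl than in LM_Ctrl, with a log2 ratio of −1.15. None of the 7 was called under DFX in LM, where the FPKM ratio of Prr5 was 0.451 (0.367 to 0.554) but its log2 ratio of FPKM + 1 was −0.97. Mlst8, a subunit of both complexes, was at 6.71 FPKM in HM_Ctrl against 3.81 in HM_DFX, and 5.25 in LM_Ctrl against 3.90 in LM_DFX. Of all expressed genes, 6.93% were called higher and 12.4% lower under DFX in HM, and 7.09% and 8.72% in LM. The lists here are small, and nothing particular to them is drawn from their counts of calls. Among 16 genes of GATOR, KICSTOR and the amino acid sensors, none was called under DFX in either clone. On the FPKM scale without the pseudocount, 2 low genes of that list were past 2-fold in HM, Depdc5 at a ratio of 0.442 (0.383 to 0.509) and Castor1 at 0.498 (0.387 to 0.637). Sesn2, a stress-induced leucine sensor, was higher in HM than in LM both without DFX (log2 ratio 1.67) and with it (1.23).

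Among 12 expressed genes of the energy and growth factor inputs to TSC, 2 were called lower under DFX in each clone (16.7%, beside 12.4% of all expressed genes in HM and 8.72% in LM) and none higher. With median-ratio scaling, 1 (Akt1) was lower and 1 (Pdpk1) higher in HM. Akt1, which phosphorylates Tsc2 and is itself a substrate of mTORC2, was at 122.5 FPKM in HM_Ctrl against 44.0 in HM_DFX, and 189 in LM_Ctrl against 65.6 in LM_DFX, ratios of 0.360 and 0.347 under DFX. Rhebl1, a relative of Rheb, was at a log2 ratio of −1.002 in HM, at the edge of the threshold from 140 and 46 fragments and not called with median-ratio scaling, and Prkag2, a subunit of AMPK, was at −1.06 in LM. Of 11 expressed genes of S6 kinase and translation besides the members, none was called in any of the 4 comparisons. Between 3.15% and 12.4% of all expressed genes were called in each direction of these comparisons, and nothing particular to so small a list is drawn from this. Among 12 expressed genes of autophagy, lysosome and feedback, Foxo3, a transcription factor that AKT inhibits, was called higher under DFX in both clones, at 8.03 FPKM in HM_Ctrl against 29.8 in HM_DFX, and 3.99 in LM_Ctrl against 19.1 in LM_DFX. Its log2 ratios were 1.77 and 2.01. Irs1 and Irs2, the insulin receptor adaptors, were called lower in 1 clone each, Irs1 in HM at −1.17 and Irs2 in LM at −1.40. In each clone 8.33% of the list was thus called higher and 8.33% lower. Of all expressed genes, 6.93% were called higher and 12.4% lower in HM, and 7.09% and 8.72% in LM. The FPKM of Irs1 also fell in LM, from 1.63 in LM_Ctrl to 0.66 in LM_DFX, but its log2 ratio of FPKM + 1 was −0.67. Since 30.7% of the 31-mers of Irs1 also occur in other genes, its value is uncertain.

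**Figure D5:**
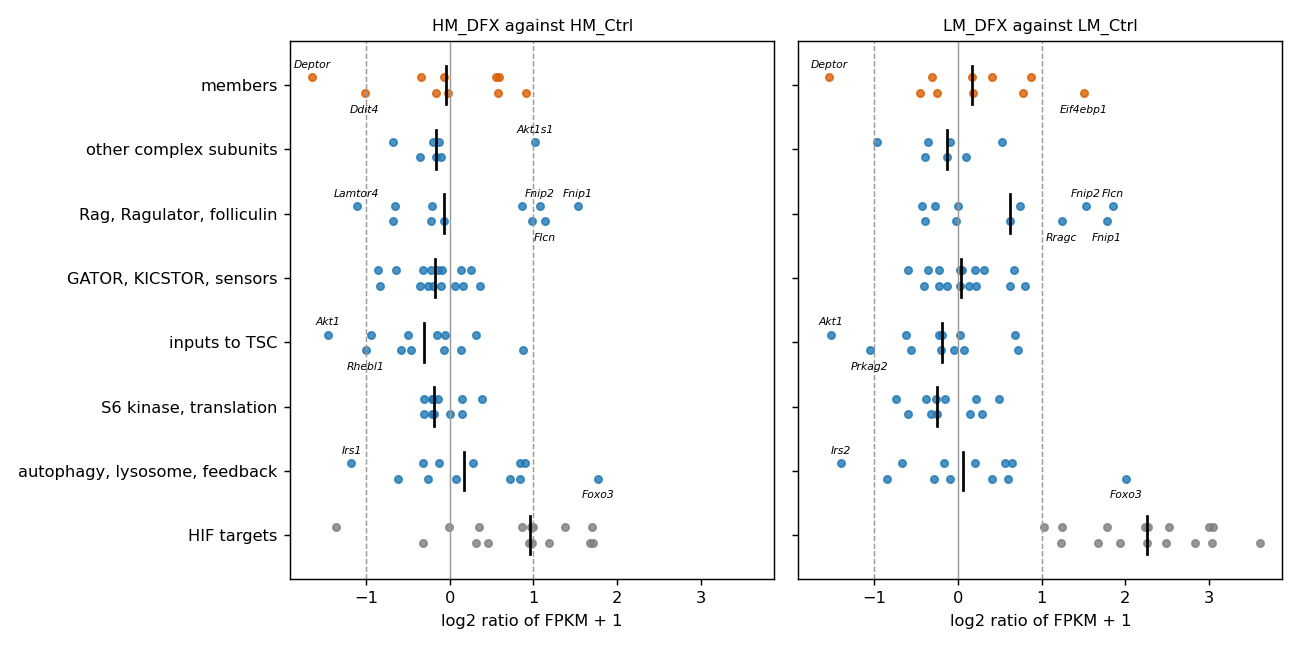
Log2 ratio of FPKM + 1 of DFX to DMSO in HM (left) and LM (right), 1 point per expressed gene by list, with a black bar at the median of each list and dashed lines at 2-fold. The 10 members and the pathway lists lie on both sides of 0 in each clone, whereas the HIF target list has a median of 0.96 in HM and 2.27 in LM.

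Ddit4 is known as a gene induced by HIF, by the amino acid response factor ATF4, by the glucocorticoid receptor and by p53, so its values were set beside lists of other targets of each. Of all expressed genes, 6.93% were called higher and 12.4% lower under DFX in HM, and 7.09% and 8.72% in LM. Between HM_Ctrl and LM_Ctrl these shares were 3.65% and 3.15%. Of 16 HIF targets, 5 were called higher and 1 lower under DFX in HM, with a median log2 ratio of 0.96 (9 higher and 1 lower under median-ratio scaling), and 16 were called higher in LM, with a median of 2.27. In HM_Ctrl against LM_Ctrl, 10 of them were called higher and none lower. Ndrg1, Slc2a1 and Ero1l, the 3 most abundant, had log2 ratios of 1.70, 0.95 and 1.19 in HM and 3.62, 2.49 and 3.00 in LM. Under DFX in LM, Ddit4 (−0.30) lay below all 16, the lowest of which was at 1.03. In HM it (−1.01) lay below 15 of the 16, all but Egln3 at −1.36. Between the clones without drug, Ddit4 was at 1.07 beside a median of 1.30 for the list. Of 12 ATF4 targets, 5 were called higher and 1 lower in HM, with a median of 0.86, and 8 higher and none lower in LM, with a median of 1.24. Atf3 and Atf5, transcription factors of the stress response, had log2 ratios of 3.07 and 1.47 in HM and 4.94 and 1.97 in LM, while Phgdh, of serine synthesis, was at −0.50 and −0.33, an uncertain value since 56.3% of its 31-mers also occur in other genes. Of 5 expressed glucocorticoid receptor targets, 1 was called higher and 1 lower in each clone, with medians of 0.01 in HM and 0.92 in LM. Klf9, a transcription factor of that list, was at 0.66 in HM and 0.95 in LM, the kinase Sgk1 at −0.61 and −0.85, and the immunophilin Fkbp5 at −1.36 and −1.20. Of 9 expressed p53 targets, 3 were called higher in HM and 4 in LM and none lower, with medians of −0.15 and 0.21, among them the cell cycle inhibitor Cdkn1a, at 2.50 and 2.78, and the p53 antagonist Mdm2, at 1.64 and 1.60. Sesn2, also on that list, was at −0.23 and 0.21, and 5 of the 9 lay below 0 in HM and 4 in LM.

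The genes nearest in profile to Mtor, Ddit4 and Deptor were sought among 8307 protein-coding genes, by the distance between log2 values of FPKM + 1 centred over the 4 libraries. For Mtor these were Toe1 (distance 0.0224), Dhx30 (0.0567) and Wbp1l (0.0571). For Ddit4 they were Bdnf (0.0930), Tmem106b (0.114) and Dap (0.179), all highest in HM_Ctrl, with Bdnf, a neurotrophin, at 7.64 FPKM in HM_Ctrl against 3.35 in HM_DFX, and 2.84 in LM_Ctrl against 2.21 in LM_DFX. For Deptor they were Acaca (0.0478), Msto1 (0.0570) and Nsdhl (0.0591). Acaca, the rate-limiting enzyme of fatty acid synthesis, was at 10.8 FPKM in HM_Ctrl against 2.70 in HM_DFX, and 11.4 in LM_Ctrl against 3.22 in LM_DFX, and Nsdhl, an enzyme of cholesterol synthesis, was at 32.5, 9.76, 35.3 and 12.2 FPKM in the same order. Each distance rests on 4 libraries with 1 value in each and is a description.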

How the data were processed

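RNA of 4 cultures of 4T1 clones was isolated, poly(A) RNA was selected and directional libraries were sequenced as read pairs. According to the submitters' processing notes and the methods, the reads went through FastQC, Trimmomatic, HISAT2 (mm10) and featureCounts, with versions and strand setting not given in the sources used here. The authors deposited FPKM for 49585 genes, unfiltered and not pooled, and all per-sample columns were used. No deposited read counts were used here.

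Differences were log2 ratios of FPKM + 1, called at 2-fold, among 12669 genes that reached an FPKM of 1 in any library. Whole fragments were recovered from the FPKM with exon lengths of GENCODE release M21, for 96.85% of 18236 genes above 0 whose coordinates matched, within 0.02 of a whole number. For Ddit4, Tsc2 and Rictor the length was solved from the values between 0.5 and 1.5 times the annotated one, and for Tsc2 and Rictor the shortest of several was used, which gives the fewest fragments and the widest interval. Intervals at 95% are exact (Clopper-Pearson on fragments for ratios, Poisson for levels), those of differences between responses are normal approximations, and all cover counting error only. The study called genes with edgeR, which was not run here, since a single library for each condition leaves the spread unknown and the values are not counts.

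The 10 genes, the lists and the rules were chosen with earlier results of these data known. Named were the 10 genes, pathway genes past 2-fold in any comparison, at most 3 genes of each HIF, ATF4, glucocorticoid receptor or p53 list by mean FPKM, and the 3 nearest profiles of Mtor, Ddit4 and Deptor. Mlst8, Eif4e, Tbc1d7, Depdc5, Castor1, Pdpk1, Egln3 and the markers were named outside this rule, after their values had been seen. The share of 31-mers that also occur in other genes was 9.72% or less for each of the 10. The calling was tested on data simulated with counting error only, so that test does not cover the spread between cultures. Python 3.11.15, pandas 2.3.3, SciPy 1.17.1 and matplotlib 3.10.9 were used.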

Additional observations from a re-analysis of the deposited data

Results flagged for a closer look

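Only the members and the pathway genes past 2-fold in any comparison were searched here. For 4 of these genes the HM and LM libraries went in opposite directions under DFX, on the log2 scale of FPKM + 1. With 1 library per condition this difference between the clones was not tested. Rptor, the raptor subunit, was at −0.34 in HM and 0.17 in LM, a difference of −0.51. Tsc2 was at −0.16 and 0.18, a difference of −0.34, and its HM value was −0.03 with median-ratio scaling. Sesn2, the leucine sensor, was at −0.23 and 0.21, a difference of −0.44. Irs2, the insulin receptor adaptor, was at 0.91 and −1.40, a difference of 2.31. Its FPKM was 7.74 in HM_Ctrl against 15.4 in HM_DFX, and 16.1 in LM_Ctrl against 5.49 in LM_DFX. Pathway genes outside the search also went in opposite directions, such as Lamtor1 at −0.21 in HM and 0.62 in LM. Lpin1 was at −0.26 and 0.60, Rps6kb2 at −0.31 and 0.50, and Eif4e, the other way, at 0.39 and −0.16. The share of all expressed genes with opposite directions was not computed.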

How the results depend on the processing

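Counts of members past the threshold were recomputed at thresholds of 1.5-fold and 4-fold, after scaling libraries by the median ratio of genes or by their 75th percentile, with a pseudocount of 0.1, among protein-coding genes, without the filter and with a filter on the mean FPKM. Of 74 such counts, 63 were within 1.5 times the reported one and 11 were not. All members encode proteins and exceeded an FPKM of 1 in every library. Leaving out the filter, filtering on the mean FPKM or keeping only protein-coding genes therefore could not change a count of members. The 63 include the counts of these settings, and also counts that stayed at 0, such as those of HM_DFX against LM_DFX. The tally is thus not a measure of how stable the counts were. At 1.5-fold, 4 genes were higher in HM_Ctrl than in LM_Ctrl, 1 (Rheb) was higher in HM under DFX, 3 (Rictor, Tsc1 and Eif4ebp1) were higher in LM under DFX, and 2 (Ddit4 and Eif4ebp1) had a lower response in HM than in LM. At 4-fold, the count was 0 for genes higher in HM_Ctrl, beside 0.332% of the expressed genes. Under DFX it was 0 for genes lower in HM, beside 1.31%, and for genes higher or lower in LM, beside 1.42% and 1.06%. With a pseudocount of 0.1, 2 genes, Tsc1 and Eif4ebp1, were higher in LM under DFX, beside 10.6% of the expressed genes. Under median-ratio scaling, 1 gene (Rheb) was higher and 1 (Deptor) lower in HM under DFX, beside 8.9% and 10.1% of the expressed genes. That scaling kept the sign of 48 of 50 log2 values of the members, all but those of Mtor and Rps6kb1 in HM under DFX, and the other 2 settings, a pseudocount of 0.1 and the 75th percentile, kept all 50. No paired analysis was possible because each condition has 1 library and no test was run. Depth limits the counting error, which is widest for Deptor in HM_DFX, from 385 fragments, and the spread between cultures is unknown.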
